A study of Mus musculus with 16 samples.

Results

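The genes described here are 10 of the 17097 genes measured, all with a role in moving ions, water, iodide or small solutes across the epithelium that lines the mammary ducts: Slc5a5, Slc5a8, Slc12a2, Slc1a1, Slc34a2, Atp1b1, Fxyd2, Fxyd3, Aqp3 and Aqp5. They were taken by name, and each gene is represented by the one of its probe sets with the highest mean over the 16 arrays. The names were put together with earlier results of these arrays known. Fxyd2 had already stood among the largest knockout rises in non-clonogenic luminal cells, and both Fxyd2 and Slc5a5 in ductal progenitors. Knockout differences of these 2 genes are therefore given as descriptions with no test, and nothing is supported by them. The same holds for the comparison of luminal with myoepithelial cells for all 10 genes, since they were grouped as luminal. Comparisons between luminal populations average both genotypes. For Slc5a5 and Fxyd2 they hold the knockout values behind the choice, so they are given with no test as well. For the other 8 genes, tests come from a fit across all genes. Which earlier results bore on their choice is not known, so no excess over all genes is read from their counts.

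RNA was measured on Affymetrix arrays in epithelial cells freshly sorted from the mammary glands of 4 untreated female mice aged 10 weeks, of strain C57BL/6J 129. Knockout mice (KO) were Sox2-Cre +/+ ; Cpeb2 -/- and wild-type mice (WT) were Sox2-Cre +/+ ; Cpeb2 +/+. There were 2 mice per genotype, all 4 carried the Cre, and a group without it was not analysed here. Sox2-Cre acts in the early embryo, so the loss is not limited to the mammary epithelium. Each mouse gave 4 populations: myoepithelial cells (low Epcam, high CD49f), non-clonogenic luminal cells (with Sca1 but without CD49b), ductal progenitors (with both antigens) and alveolar progenitors (with CD49b but without Sca1). Mouse 1 of the KO and mouse 1 of the WT group had the same parents, as had both mice numbered 2. Cpeb2 encodes a protein that binds messenger RNAs and controls their polyadenylation and translation.

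A secretory epithelium moves salt and water by a chain of proteins. The sodium pump, of which Atp1b1 encodes the beta subunit, sets up the sodium gradient, and small FXYD proteins tune the pump. Sodium-coupled carriers then use that gradient to bring chloride, iodide, phosphate, monocarboxylates or acidic amino acids into the cell, and aquaporins let water follow. In the lactating gland this machinery sets the ionic content of milk, including the iodide that reaches the newborn.

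The deposited log2 values ran from 3.40 to 13.60, with array medians from 6.35 to 6.40, and replicate arrays correlated at r = 0.975 to 0.991. The lower quartile of all probe sets was 5.13, and a gene under it is treated as not above the background of the array. Cpeb2 itself was lower in KO cells in the mean of the 4 populations, by -0.92 ± 0.21 (SE; limma adjusted p = 0.0201). It differed by -1.45 in non-clonogenic luminal cells, -1.08 in ductal progenitors, -0.39 in alveolar progenitors and -0.74 in myoepithelial cells, none called. Ductal progenitors held 7.88 and 8.00 in WT and 6.39 and 7.35 in KO mice. Alveolar progenitors held 5.52 and 5.53 in WT and 5.45 and 4.81 in KO mice. The labelled cell types carried their markers: the mean level of 9 myoepithelial markers was 11.95 to 12.19 in the myoepithelial arrays and 6.58 to 7.44 in the luminal ones. Of 9 leukocyte markers, 3 lay under the lower quartile on all arrays, among them Ptprc at 3.81 to 3.98, and the mean of the list was 5.28 to 5.63. A list of 13 cell cycle genes had a lower mean level in KO than in WT cells of every population, for instance 7.31 and 6.93 against 9.86 and 9.13 in ductal progenitors. In bulk samples, fewer cells of a type and less RNA per cell cannot be told apart.

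Promoter sequences are printed for Slc5a5, Slc5a8, Slc1a1 and Aqp3, the first 3 for their wide range between luminal populations and Aqp3 for its mean rise in KO mice. RefSeq's promoter table for GRCm38.p6 held 8 of the 10 genes, without Fxyd2 and Slc12a2. Each run covers the 150 bases upstream of the annotated start, 5′ to 3′ on the gene's own strand, and capitals mark matches on either strand to 4 motifs: the TATA box spelled TATAAA, the CAAT box spelled CCAAT, the GC box spelled GGGCGG and the core of nuclear receptor sites spelled GGTCA. The windows are chr8:70892758-70892907 on the minus strand, chr10:88885842-88885991 on the plus strand, chr19:28834985-28835134 on the plus strand and chr4:41098184-41098333 on the minus strand.
Slc5a5: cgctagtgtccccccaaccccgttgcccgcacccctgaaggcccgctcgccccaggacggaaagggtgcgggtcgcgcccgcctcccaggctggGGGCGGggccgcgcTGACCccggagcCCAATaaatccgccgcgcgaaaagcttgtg
Slc5a8: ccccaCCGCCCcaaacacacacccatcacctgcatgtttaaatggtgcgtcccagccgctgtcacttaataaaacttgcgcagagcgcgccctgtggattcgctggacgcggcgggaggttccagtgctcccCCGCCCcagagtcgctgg
Slc1a1: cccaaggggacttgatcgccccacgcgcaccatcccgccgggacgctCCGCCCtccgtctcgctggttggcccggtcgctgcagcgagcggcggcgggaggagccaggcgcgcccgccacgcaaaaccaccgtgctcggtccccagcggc
Aqp3: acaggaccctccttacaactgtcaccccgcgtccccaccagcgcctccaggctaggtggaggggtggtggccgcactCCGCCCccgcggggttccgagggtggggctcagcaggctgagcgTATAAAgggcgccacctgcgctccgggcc
Among 32851 promoters of the same length, 7.6% held the TATA box, 24.5% the CAAT box, 28.6% the GC box and 23.1% the nuclear receptor core. Slc5a5 had a CAAT box whose first base lay 30 bases before the start, a GC box at 56 and a reversed nuclear receptor core at 42. The Slc5a8 window had reversed GC boxes at 145 and 18, and Slc1a1 had one at 103. Aqp3 had a TATA box at 29 bases, with a reversed GC box at 73. None of these matches overlapped another, and a match is a description of letters, not of binding.

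**Figure D1:**
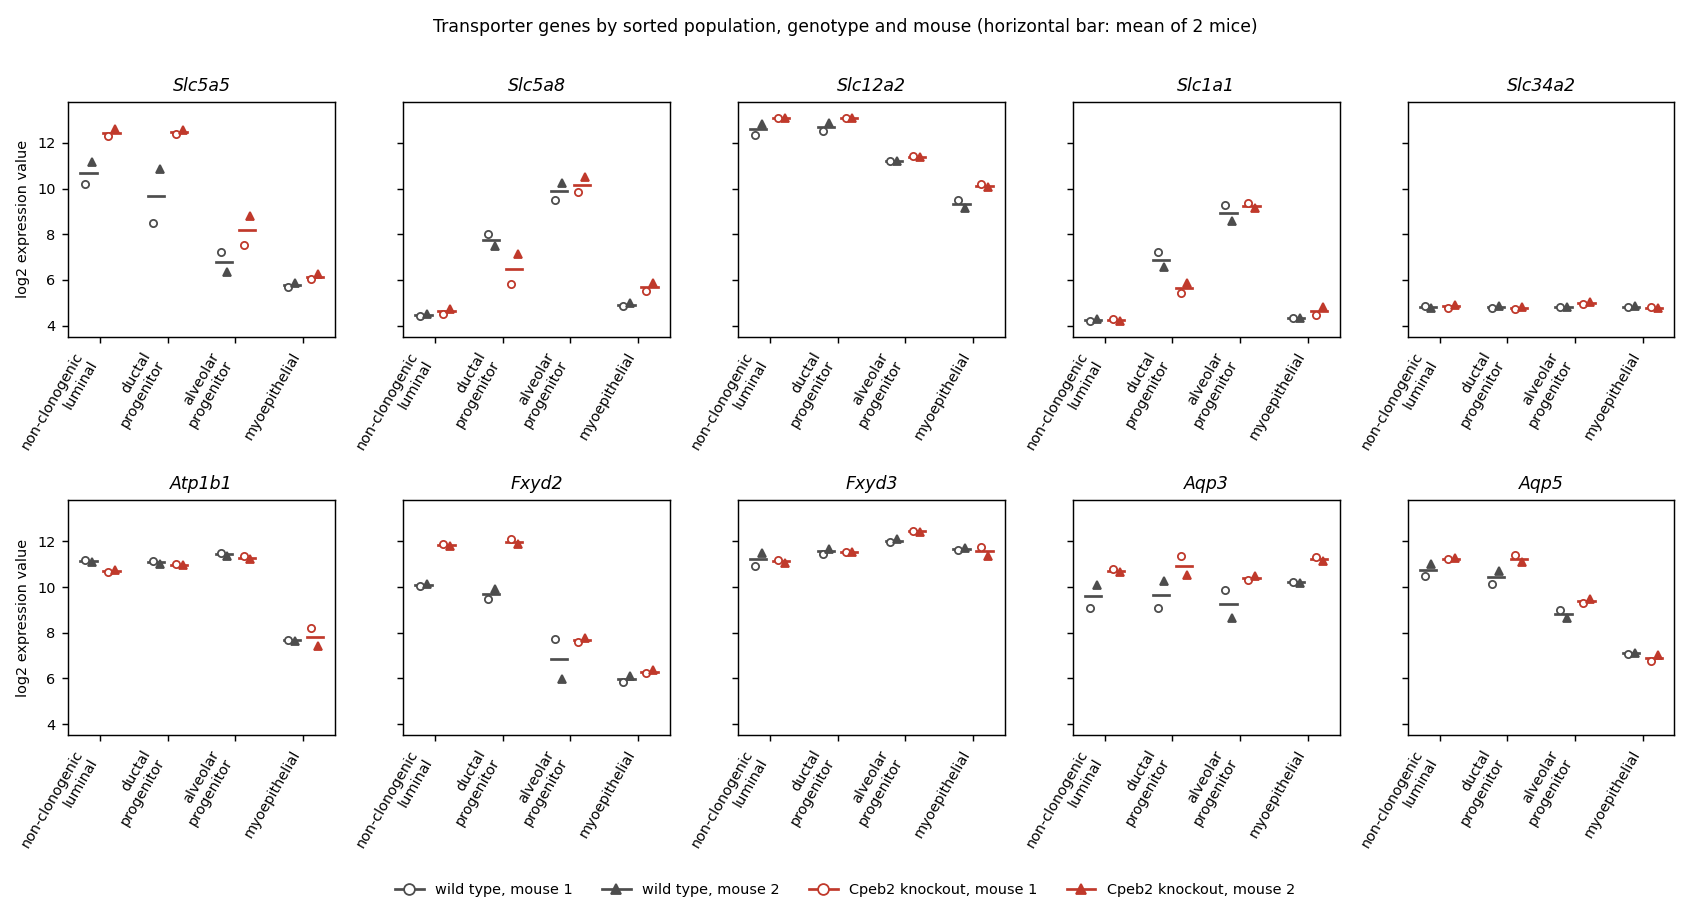
Deposited log2 level (vertical axis) of the 10 transporter genes, 1 panel a gene, in non-clonogenic luminal cells (NCL), ductal progenitors (DP), alveolar progenitors (AP) and myoepithelial cells (Myo). Circles are mouse 1 and triangles mouse 2 of each genotype, grey is WT, red is KO and the bar is the mean of the 2 arrays. Slc5a5 and Fxyd2 stand high in NCL and DP, Slc5a8 and Slc1a1 stand high in AP, and Slc34a2 lies between 4.73 and 5.05 throughout.

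The label luminal described some of these genes and not others. Slc5a5, Slc12a2, Atp1b1 and Aqp5 were higher on all 12 luminal arrays than on all 4 myoepithelial arrays, as were 7.22% of all genes. The differences between the luminal mean and the myoepithelial mean were 4.08 for Slc5a5, 3.55 for Fxyd2, 3.37 for Atp1b1, 3.31 for Aqp5, 2.62 for Slc12a2, 2.05 for Slc1a1 and 1.93 for Slc5a8 (log2). The values of Slc1a1 and Slc5a8 compare populations partly under the lower quartile, and both genes overlapped between luminal and myoepithelial arrays. Fxyd2 overlapped with myoepithelial cells through 1 luminal array, that of WT alveolar progenitors from mouse 2, at 5.98. Fxyd3 was at the same level on both sides, with a difference of 0.03. Aqp3 had a lower mean in luminal than in myoepithelial cells, with a difference of -0.62, but the arrays overlapped, at 8.65 to 11.35 and 10.19 to 11.32. The direction turned with another Aqp3 probe set. Slc34a2, the phosphate carrier NaPi-IIb known from the lactating gland, lay under the lower quartile on all 16 arrays, at 4.73 to 5.05, so no direction is read from it.

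Between the luminal populations the genes fell into groups with opposite patterns. Slc5a5, Fxyd2, Slc12a2 and Aqp5 were higher in both Sca1 positive populations than in alveolar progenitors, whereas Slc5a8, Slc1a1 and Fxyd3 were lower there. Calls at a limma adjusted p under 0.05 were counted over the 8 genes other than Slc5a5 and Fxyd2. In the comparison of non-clonogenic luminal cells with alveolar progenitors, 6 of the 8 were called, 2 higher and 4 lower, against 28.5% of all genes. Between ductal and alveolar progenitors 5 were called, 2 higher and 3 lower, against 22% of all genes. Between non-clonogenic luminal cells and ductal progenitors 2 were called, both lower, against 0.795% of all genes. The median difference over the 8 genes was -0.26, -0.23 and -0.12 in these comparisons, beside 0.03, 0.01 and 0.02 over all genes. These comparisons share populations, so their counts are not independent, and no excess over all genes is read from them.

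**Figure D2:**
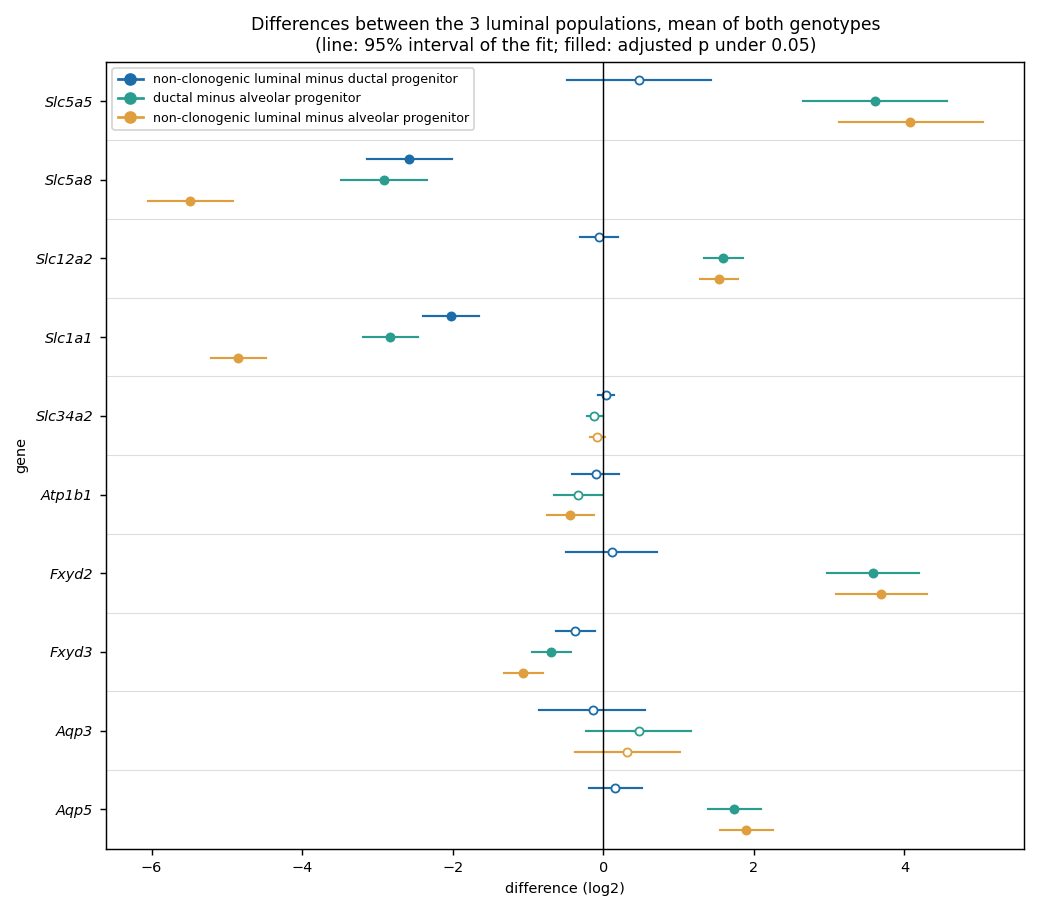
Difference in log2 level between luminal populations, as the mean of both genotypes, for each transporter gene (non-clonogenic luminal cells NCL, ductal progenitors DP, alveolar progenitors AP). Bars are 95% intervals of the limma fit and filled points have an adjusted p under 0.05. The points of Slc5a5 and Fxyd2 hold the KO values behind their choice and are descriptions, so their fill is not read as a test. The differences from alveolar progenitors run from -5.49 for Slc5a8 to 4.08 for Slc5a5.

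Slc5a5 encodes the sodium iodide symporter, which takes iodide up from blood into thyroid and lactating mammary cells. In non-clonogenic luminal cells it was at 10.20 and 11.16 in WT mice 1 and 2 and at 12.31 and 12.59 in KO mice 1 and 2. In ductal progenitors it was at 8.51 and 10.86 in WT and at 12.41 and 12.57 in KO mice. In alveolar progenitors it was at 7.23 and 6.36 in WT and at 7.51 and 8.82 in KO mice. Both KO mice were above both WT mice in each of these populations, and the WT ductal progenitors differed from each other by more than the KO ones. Myoepithelial cells held 5.70 and 5.85 in WT and 6.02 and 6.28 in KO mice, the lowest level of the 4 populations. Over both genotypes, ductal progenitors exceeded alveolar progenitors by 3.61 ± 0.44 (SE, 4 mice), or 12.18-fold. This average holds the KO values behind the choice of Slc5a5, so no test is given. By genotype that gap was 2.88 in WT and 4.32 in KO mice, 7.36-fold and 19.97-fold. Non-clonogenic luminal cells exceeded alveolar progenitors by 4.08 ± 0.44, with 3.88 in WT and 4.28 in KO mice. Non-clonogenic luminal cells and ductal progenitors, next to each other in the order of levels, differed by 0.48, again with no test. The means of these populations were 10.68 and 9.68 in WT mice and 12.45 and 12.49 in KO mice.

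Fxyd2, the gamma subunit of the sodium pump known best from the kidney, followed Slc5a5 closely across the arrays (Pearson r = 0.98 over 16 arrays, which share mice and populations). Its level in non-clonogenic luminal cells was 10.03 and 10.12 in WT and 11.89 and 11.78 in KO mice. In ductal progenitors it was 9.46 and 9.92 in WT and 12.09 and 11.87 in KO mice. WT and KO arrays of both populations stood clear of each other. In alveolar progenitors the values were 7.71 and 5.98 in WT and 7.59 and 7.76 in KO mice, which overlapped, and in myoepithelial cells 5.84 and 6.09 against 6.25 and 6.35. Ductal progenitors exceeded alveolar progenitors by 3.58 ± 0.28 (SE) and non-clonogenic luminal cells exceeded them by 3.69 ± 0.28. Both averages hold the KO values behind the choice of Fxyd2, so no test is given. In WT mice alone these gaps were 2.85 and 3.23, and in KO mice 4.31 and 4.16. Non-clonogenic luminal cells and ductal progenitors differed by 0.12, with 0.38 in WT and -0.15 in KO mice.

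Atp1b1, the beta subunit that carries the sodium pump to the membrane, was high in every luminal population, from 10.66 to 11.51, and lay at 7.40 to 8.20 in myoepithelial cells. With its 2 other probe sets, non-clonogenic luminal cells differed from alveolar progenitors by -0.29 (limma adjusted p = 0.0821) and -0.27 (adjusted p = 0.0962), neither called. The probe set used gave -0.44 ± 0.14 (SE; adjusted p = 0.0394), which was called. That call was lost when any 1 of the 4 mice was left out, and adjusted p reached 0.168 over the alternatives. Fxyd3, another pump regulator, was between 10.94 and 12.46 on all arrays and was highest in alveolar progenitors. Compared with these, it was lower by -1.06 ± 0.12 in non-clonogenic luminal cells (limma adjusted p = 2.8e-05) and by -0.69 ± 0.12 in ductal progenitors (adjusted p = 0.00119). The latter lost its call without KO mouse 1 (adjusted p = 0.0535). The 2 FXYD genes thus had opposite orders in the luminal cells, and their levels correlated at r = -0.54 over the 16 arrays.

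Slc12a2 encodes NKCC1, the basolateral carrier that loads secretory cells with sodium, potassium and chloride. Non-clonogenic luminal cells held 12.36 and 12.81 in WT and 13.11 and 13.08 in KO mice, and ductal progenitors held 12.53 and 12.86 in WT and 13.10 and 13.10 in KO mice. Alveolar progenitors held 11.21 and 11.20 in WT and 11.42 and 11.38 in KO mice, and myoepithelial cells 9.52 and 9.13 in WT and 10.21 and 10.05 in KO mice. In all 4 populations both KO mice were above both WT mice with the probe set used. The share of all genes with such an order was not counted. Over both genotypes, Slc12a2 levels in ductal progenitors exceeded those in alveolar progenitors by 1.59 ± 0.12 (SE; limma adjusted p = 1.81e-06), and levels in non-clonogenic luminal cells exceeded them by 1.54 ± 0.12 (adjusted p = 1.07e-06).

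Slc5a8 encodes a sodium-coupled carrier of monocarboxylates such as lactate and butyrate. Alveolar progenitors held 9.51 and 10.26 in WT and 9.83 and 10.52 in KO mice, the highest level of the 4 populations. Ductal progenitors held 8.03 and 7.49 in WT and 5.81 and 7.14 in KO mice, so both KO mice were below both WT mice there. All 4 non-clonogenic luminal arrays, from 4.43 to 4.73, lay under the lower quartile, and so did the WT myoepithelial arrays at 4.86 and 4.97, with 5.52 and 5.85 in KO mice. Non-clonogenic luminal cells were lower than alveolar progenitors by -5.49 ± 0.26 (SE; limma adjusted p = 2.34e-08) and lower than ductal progenitors by -2.58 ± 0.26 (adjusted p = 0.000216). Since the low side was not above background, the sizes of both differences are lower bounds. Ductal progenitors stood between the other luminal populations, lower than alveolar progenitors by -2.91 ± 0.26 (adjusted p = 7.93e-06).

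Slc1a1, which encodes the glutamate and aspartate carrier also called EAAC1, had the same order as Slc5a8 (r = 0.98 over the 16 arrays). Alveolar progenitors held 9.28 and 8.58 in WT and 9.37 and 9.14 in KO mice. Ductal progenitors held 7.21 and 6.56 in WT and 5.44 and 5.85 in KO mice, so the genotypes did not overlap and KO was the lower. Non-clonogenic luminal cells, at 4.19 to 4.31, and myoepithelial cells, at 4.34 to 4.80, were under the lower quartile on all arrays. Ductal progenitors were lower than alveolar progenitors by -2.83 ± 0.17 (SE; limma adjusted p = 3.56e-07). Non-clonogenic luminal cells were lower than alveolar progenitors by -4.85 ± 0.17 (adjusted p = 2.41e-09) and lower than ductal progenitors by -2.02 ± 0.17 (adjusted p = 3.08e-05), both lower bounds in size. The dimmer probe set of Slc1a1 gave the same directions with smaller differences, -1.71 between ductal and alveolar progenitors and -0.50 between non-clonogenic luminal cells and ductal progenitors, the latter with an adjusted p of 0.122.

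The aquaporins differed from each other in where they were found. Aqp5, the apical water channel of salivary and other secretory glands, was at 10.15 to 11.39 in both Sca1 positive populations, at 8.64 to 9.46 in alveolar progenitors and at 6.76 to 7.13 in myoepithelial cells. Compared with alveolar progenitors, Aqp5 was higher by 1.74 ± 0.16 in ductal progenitors (SE; limma adjusted p = 9.75e-06) and by 1.90 ± 0.16 (adjusted p = 2.52e-06) in the non-clonogenic cells. Its level tracked that of Slc12a2 (r = 0.97 over the 16 arrays). Aqp3, an aquaporin that also passes glycerol and sits basolaterally in many epithelia, had no called difference between luminal populations, with -0.14 between non-clonogenic luminal cells and ductal progenitors, 0.47 between ductal and alveolar progenitors and 0.32 between non-clonogenic luminal cells and alveolar progenitors.

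Knockout and wild type were compared within each population to see how the loss of Cpeb2 bears on each cell type. In ductal progenitors, Slc5a5 and Fxyd2 were the genes with the widest gap. Slc5a5 was higher in KO than in WT cells by 2.81 ± 0.63 (SE, 2 mice a genotype), or 7-fold, with differences of 3.90 and 1.71 in the 2 parent pairs. Fxyd2 was higher by 2.29 ± 0.40, or 4.88-fold. Both had been chosen for these differences, so no test is given. The Slc5a5 value depended on the WT arrays, being 1.64 without the WT ductal progenitor array of mouse 1 and 3.98 without that of mouse 2.

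Slc1a1 moved the other way in ductal progenitors. It fell by 1.24 ± 0.24 on the log2 scale (limma adjusted p = 0.0177), a 2.36-fold decrease, with a lower value in the KO mouse of both parent pairs. The call was lost without KO mouse 1 (-1.03, adjusted p = 0.291), without KO mouse 2 (-1.44, adjusted p = 0.135), without WT mouse 1 (-0.92, adjusted p = 0.088), and without the ductal progenitor array of KO mouse 1 (adjusted p = 0.15) or of WT mouse 1 (adjusted p = 0.196). It was also lost when ductal progenitor arrays alone were fitted (adjusted p = 0.109). With the dimmer Slc1a1 probe set the difference was -0.24 (adjusted p = 0.374). Slc5a8, with the same order of populations, differed by -1.29 ± 0.38 and missed the threshold (adjusted p = 0.0566), and Aqp5 by 0.82 ± 0.23 (adjusted p = 0.0524). The Slc5a8 value was -0.64 without the KO ductal progenitor array of mouse 1 and -1.94 without that of mouse 2 (adjusted p = 0.0304), and -2.22 and -0.35 within the parent pairs. The Aqp5 value was 0.54 without the WT ductal progenitor array of mouse 1 (adjusted p = 0.418). With the parent pair as a fixed block in place of the mouse block both passed, Slc5a8 at an adjusted p of 0.038 and Aqp5 at 0.0475. Atp1b1 differed by -0.11 with the probe set used (limma adjusted p = 0.738). Its 2 other probe sets gave -0.62 (adjusted p = 0.0436) and -0.51 (adjusted p = 0.075).

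Of the 8 genes other than Slc5a5 and Fxyd2, 1 was called in ductal progenitors, where 7.44% of all genes were called. With the parent pair as a block 3 of the 8 were called, against 8.89% of all genes. The median difference over these 8 genes was -0.04, beside 0.08 over all genes. Markers of other cell states moved with these values. The mean level of 8 hormone-sensing luminal markers was 9.77 and 9.91 in WT and 10.57 and 10.57 in KO ductal progenitors. Of these, 6 of 8 had a higher mean and 3 were called higher, namely Ly6d, Esr1 and Prom1. The mean of 10 alveolar progenitor markers was 8.85 and 8.40 in WT and 7.84 and 8.35 in KO cells. Of these, 3 of 10 had a higher mean and 3 of 10 were called lower, namely Kit, Elf5 and Rspo1. The mean of 8 fibroblast markers was 7.71 and 6.40 in WT and 6.23 and 5.99 in KO cells, with 1 of 8 called lower and 3 of 8 under the lower quartile on all arrays. Without the WT ductal progenitor array of mouse 1, which was highest in fibroblast markers, Slc1a1 differed by -0.93 and Fxyd2 by 2.04, and 0.275% of all genes were called. The mean of 9 leukocyte markers was 5.28 and 5.40 in WT and 5.59 and 5.55 in KO cells, with Csf1r called higher (0.49, adjusted p = 0.0155). The difference of the 3′ and middle probe sets of Gapdh was 0.60 and 0.39 in WT and 0.15 and 0.12 in KO ductal progenitors. The part of marker levels, of the 11 of 13 cell cycle genes called lower and of the Gapdh values in these results was not tested.

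**Figure D3:**
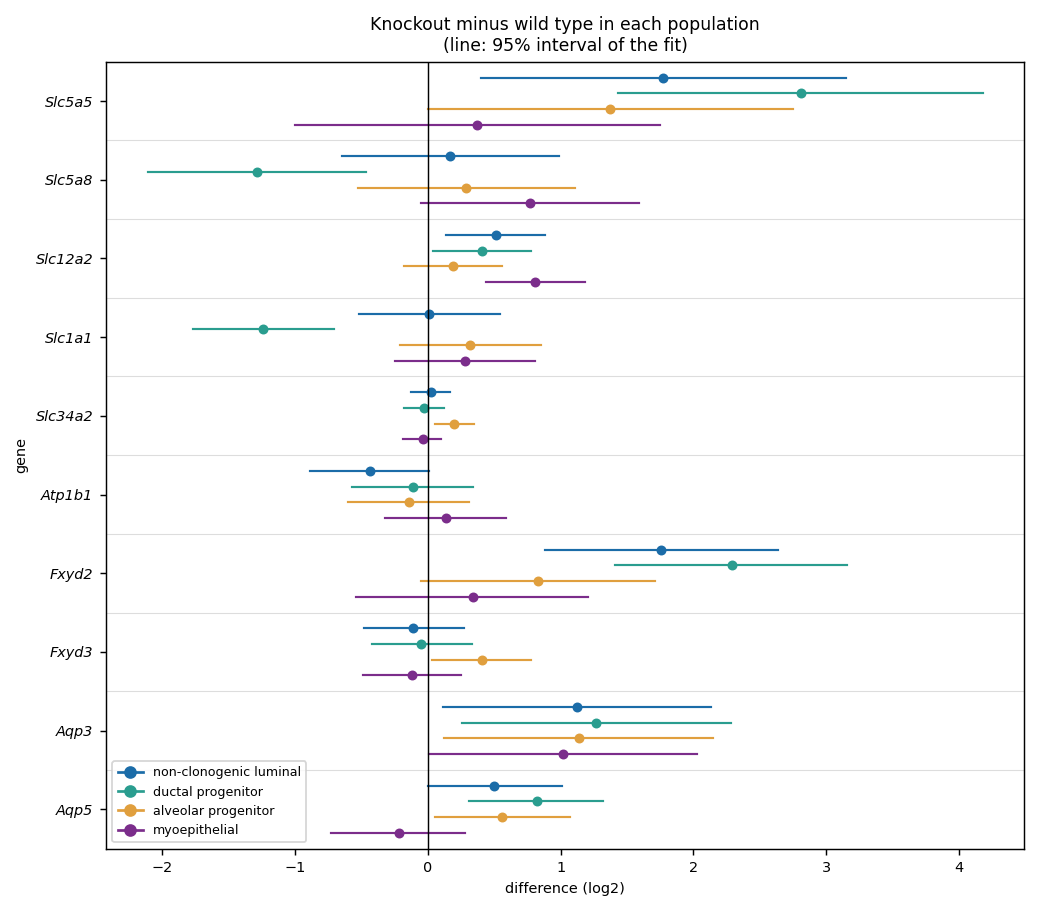
Knockout minus wild-type difference in log2 level of each transporter gene in non-clonogenic luminal cells (NCL), ductal progenitors (DP), alveolar progenitors (AP) and myoepithelial cells (Myo), with 95% intervals of the limma fit over 2 mice a genotype. Slc5a5 and Fxyd2 lie at 2.81 and 2.29 in ductal progenitors, Slc1a1 and Slc5a8 at -1.24 and -1.29 there, and Aqp3 between 1.02 and 1.27 in all 4 populations.

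In non-clonogenic luminal cells, Slc5a5 was higher in KO than in WT mice by 1.77 ± 0.63 (SE) and Fxyd2 by 1.76 ± 0.40, again as descriptions. Of the other 8 genes, 0 were called in limma there, where 2.06% of all genes were. At an unadjusted p under 0.05 there were 2 of the 8, and 2919 of all genes. Aqp3 differed by 1.12 ± 0.46 (adjusted p = 0.243), Slc12a2 by 0.51 ± 0.17 (adjusted p = 0.15), Aqp5 by 0.50 (adjusted p = 0.297) and Atp1b1 by -0.44 ± 0.21 (adjusted p = 0.308). Atp1b1 was at 11.19 and 11.10 in WT and at 10.66 and 10.76 in KO mice, so the arrays of both genotypes stood apart. Its 2 other probe sets gave -0.72 and -0.71 (limma adjusted p = 0.0511 for each). The median difference was 0.10 over the 8 genes and 0.03 over all genes. Hormone-sensing luminal markers averaged 10.05 and 10.07 in WT and 10.46 and 10.64 in KO cells, and their part in these values was not tested.

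In alveolar progenitors 0 of the 8 genes not chosen on knockout differences were called in limma, where 0.62% of all genes were. At an unadjusted p under 0.05 there were 4 of the 8, and 1624 of all genes. These 4 were Aqp3, Aqp5, Fxyd3 and Slc34a2, the last under the lower quartile. Aqp3 differed by 1.14 (adjusted p = 0.438), Slc5a5 by 1.37 ± 0.63, Aqp5 by 0.56 (adjusted p = 0.449), Fxyd3 by 0.41 ± 0.17 (adjusted p = 0.459) and Slc1a1 by 0.32 (adjusted p = 0.82). The levels of Slc1a1 and Slc5a8, high in this population, therefore had no called change.

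Among myoepithelial cells, Slc12a2 was called, with a rise of 0.81 ± 0.17 in KO mice (limma adjusted p = 0.0487), where 1.01% of all genes were called. It lost the call with the parent pair as a fixed block (adjusted p = 0.0528) and passed in 9 of 29 alternatives, with values from 0.59 to 1.03. Leaving out any of the 8 KO arrays, either WT array of alveolar progenitors or the WT myoepithelial array of mouse 2 ended the call, as did leaving out either KO mouse or WT mouse 2. Its 2 other probe sets gave 0.93 (adjusted p = 0.0506) and 0.50 (adjusted p = 0.359). Endothelial markers had a mean level of 6.23 and 6.26 in WT myoepithelial cells and 6.55 and 7.15 in KO mice and 1 of 8 called. Luminal markers, 10 genes, averaged 8.95 and 9.19 in WT and 9.40 and 9.23 in KO myoepithelial cells, 7 of 10 with a higher mean and 0 called by limma. The part of either list in the Slc12a2 value was not tested. The remaining values were 1.02 for Aqp3 (adjusted p = 0.346), 0.77 for Slc5a8 (adjusted p = 0.381), 0.37 for Slc5a5 and 0.34 for Fxyd2.

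Averaged over the 4 populations, Aqp3 and Slc12a2 rose in KO mice. Aqp3 was at 9.10 and 10.09 in WT and at 10.78 and 10.66 in KO non-clonogenic luminal cells, and at 9.08 and 10.25 in WT and 11.35 and 10.52 in KO ductal progenitors. Alveolar progenitors held 9.89 and 8.65 in WT and 10.33 and 10.48 in KO mice, and myoepithelial cells 10.22 and 10.19 in WT and 11.32 and 11.13 in KO mice. All 8 KO arrays, at 10.33 to 11.35, were above all 8 WT arrays, at 8.65 to 10.25, which held for 9 genes or 0.0526% of all genes. The mean difference was 1.14 ± 0.24 (SE; limma adjusted p = 0.0133), or 2.2-fold, with a 95% interval from 0.60 to 1.67. The F test over populations gave no call for a difference between the 4 effects (adjusted p = 0.991). The Aqp3 call was lost without KO mouse 1 (1.01, adjusted p = 0.11) or KO mouse 2 (1.26, adjusted p = 0.0769). Tested over 28898 probe sets, the other Aqp3 probe sets, at 7.24 to 8.25 and 4.61 to 6.87, gave 0.39 (adjusted p = 0.0793) and 0.47 (adjusted p = 0.207).

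With the probe set used for Slc12a2, both parent pairs were higher in every population. Slc12a2 rose by 0.48 ± 0.09 in the mean of the 4 populations (SE; limma adjusted p = 0.00667), or 1.39-fold. It lost the call without KO mouse 1 (0.45, adjusted p = 0.0863) or KO mouse 2 (0.51, adjusted p = 0.0777). Of its other probe sets, 1 gave 0.57 (limma adjusted p = 0.00704) and the other 0.18 (adjusted p = 0.387). The latter probe set gave 0.05 in non-clonogenic luminal cells and 0 in ductal progenitors. Aqp5 differed by 0.41 ± 0.12 (limma adjusted p = 0.052). It passed with the parent pair as a fixed block in place of the mouse block (adjusted p = 0.0333). That setting counts the arrays of 1 mouse as independent. With no mouse block and no parent pair, 12.9% of all genes were called in this mean. Atp1b1 differed by -0.14 (adjusted p = 0.438), while its 2 dimmer probe sets gave -0.34 (adjusted p = 0.0301) and -0.33 (adjusted p = 0.0337). Slc5a5 and Fxyd2 differed by 1.58 ± 0.33 and 1.30 ± 0.21, as descriptions. Of the other 8 genes 2 were called in this mean, where 10.2% of all genes were called, and the medians were 0.04 over the 8 genes and 0.02 over all genes. Within-population and mean comparisons share their arrays. The cell cycle list, lower in KO cells of every population as given above, moved with these differences. So did luminal markers, with 2 of 10 called higher (Epcam and Elf3), and hormone-sensing luminal markers, with 3 of 8 called higher (Ly6d, Esr1 and Prom1). Their part in the differences was not tested.

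**Figure D4:**
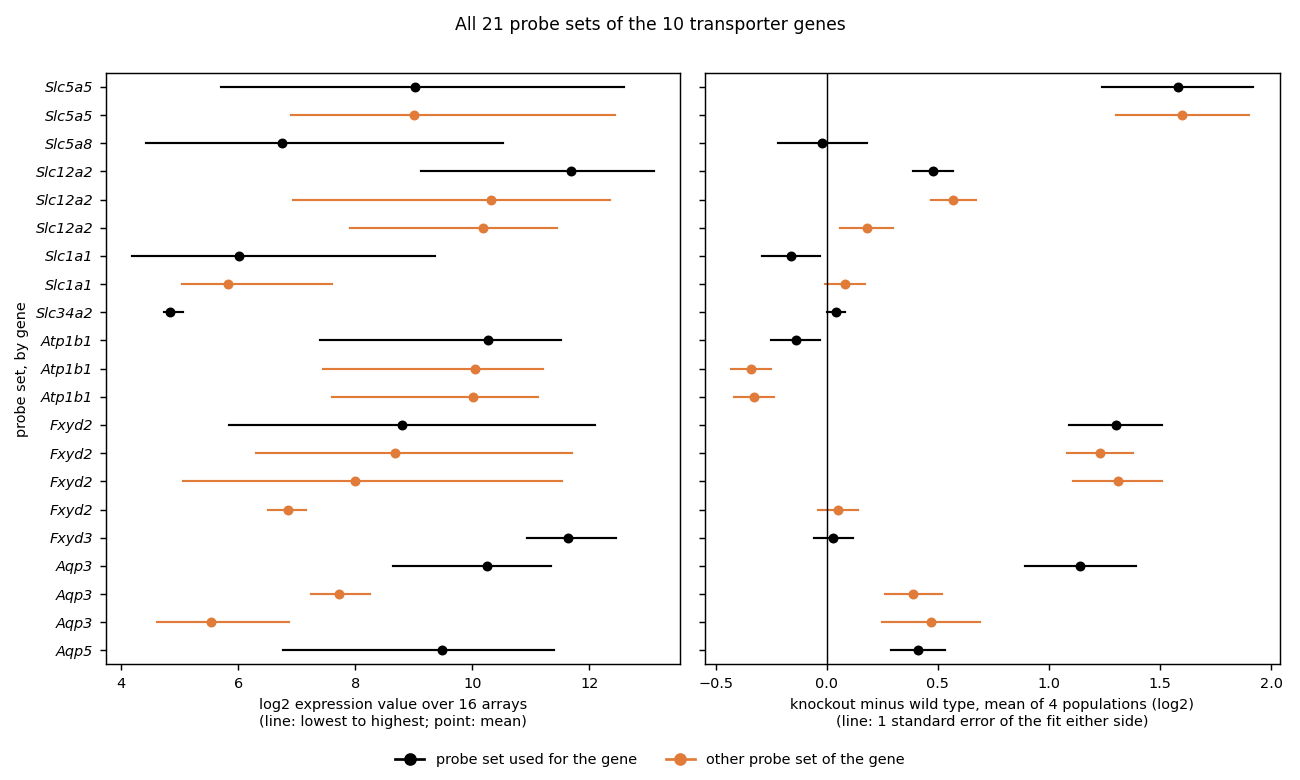
All 21 probe sets of the 10 transporter genes. Left, the range and mean of the log2 level over the 16 arrays; right, the knockout minus wild-type difference in the mean of the 4 populations with its standard error. Black marks the probe set used for each gene, and orange the others, among them an Fxyd2 probe set at 6.51 to 7.16 with a difference of 0.05.

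There were 21 probe sets, and 6 of the 10 genes had several. The other probe set of Slc5a5, at 6.91 to 12.43, followed the one used at r = 0.964, with knockout differences of 3.35 in ductal progenitors, 2.46 in non-clonogenic luminal cells and 0.50 in alveolar progenitors. For Fxyd2, 2 further probe sets followed the one used (r = 0.999 and 0.987), while the fourth stayed between 6.51 and 7.16 (r = 0.185). For Atp1b1 the others followed at r = 0.991 and 0.99, and for Aqp3 at r = 0.701 and 0.48.

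Whether the knockout effect differed between populations was asked of each gene directly. The F test in limma called 0 of the 8 genes other than Slc5a5 and Fxyd2, where 0.667% of all genes were called, while 3 of the 8 and 2872 of all genes had an unadjusted p under 0.05. Slc1a1 had the F value of 9.57 (limma adjusted p = 0.0892). The contrast of both Sca1 positive populations with the other populations was chosen with earlier results of these data known, so a call in it is a description. Slc1a1 was called there, with a mean effect of -0.62 in the Sca1 positive and 0.30 in the other populations. The difference was -0.92 ± 0.24 (limma adjusted p = 0.0488), where 4.71% of all genes were called. It passed in 6 of 28 alternatives. Of single arrays left out, 2 kept the call (WT alveolar progenitors of mouse 1 and WT ductal progenitors of mouse 2), as did leaving out WT mouse 2, and the others ended it. Its adjusted p was 0.055 with the parent pair as a fixed block. Non-clonogenic luminal and myoepithelial cells had Slc1a1 under the lower quartile, so the levels above background in this contrast were those of ductal and alveolar progenitors. In these 2 populations the dimmer Slc1a1 probe set gave knockout effects of -0.24 (limma adjusted p = 0.374) and 0.35 (adjusted p = 0.588).

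Other transporters were looked at through lists of 95 genes, of which 83 were measured and 11 lay under the lower quartile. The lists were put together with earlier results of these arrays known, so their counts are descriptions. In the mean of the 4 populations 6 of 83 were called in limma, 4 higher and 2 lower, or 7.2% against 10.2% of all genes. Aqp11, an aquaporin of internal membranes, fell by 0.77 in that mean (adjusted p = 0.00154). It went from 8.19 and 8.02 in WT to 6.55 and 6.50 in KO non-clonogenic luminal cells, a fall of 1.58 ± 0.19 (adjusted p = 0.00349), and its effect differed between populations (F test, adjusted p = 0.0357). The water channel gene Aqp1 rose by 0.68 (adjusted p = 0.045). Stk39, a kinase that activates NKCC1, fell by 0.65 (adjusted p = 0.0406). None of the 7 measured other pump subunits and FXYD genes was called in the 4 populations or their mean. The alpha subunit genes of the pump were not measured by a probe set with 1 symbol.

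Channel genes gave most of the calls in alveolar progenitors, where 4 of 83 genes were called, all higher, or 4.8% against 0.62% of all genes. As the lists were chosen with earlier results known, no excess is read from this share. Clic6, of the chloride intracellular channel family, went from 8.89 and 9.13 in WT to 10.68 and 10.93 in KO alveolar progenitors, a rise of 1.79 (limma adjusted p = 0.000216). Scnn1b, the beta subunit of the epithelial sodium channel, went from 6.58 and 6.17 to 7.93 and 8.16, a rise of 1.67 (adjusted p = 0.00184). It was called in ductal progenitors as well (adjusted p = 0.0149), going from 6.77 and 6.85 in WT to 7.59 and 8.03 in KO mice. Kcne3, a potassium channel subunit, went from 6.50 and 6.89 to 9.17 and 8.06, a rise of 1.92 (adjusted p = 0.00548), and its partner Kcnq1 rose by 0.65 (adjusted p = 0.0422). In ductal progenitors 5 of 83 were called, 3 higher and 2 lower, or 6% against 7.44% of all genes, among them a fall of 1.17 in the potassium channel gene Kcnn4 (adjusted p = 0.0372). In non-clonogenic luminal cells 2 were called, both lower, or 2.4% against 2.06% of all genes, namely Aqp11 and Slc12a8 (-0.87, adjusted p = 0.0327), and in myoepithelial cells none was.

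Between non-clonogenic luminal cells and alveolar progenitors 29 of the 83 genes were called in limma, 11 higher and 18 lower, or 34.9% against 28.5% of all genes. The choline carrier gene Slc5a7 was lower by -5.29, Kcnn4 by -4.97, the potassium channel gene Kcnk5 by -3.75, Clic6 by -3.61 and the glucose carrier gene Slc5a1 by -3.51. The sodium channel subunit gene Scnn1a and the kinase gene Wnk4 were higher, by 2.06 and 2.38, and the phosphate exporter gene Xpr1 by 1.42. Between ductal and alveolar progenitors 21 were called, 7 higher and 14 lower, or 25.3% against 22% of all genes.

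The genes with levels most like each transporter were ranked by Pearson r over the 16 arrays among 3997 genes with an SD of at least 0.5. Slc5a5 was nearest to Dkkl1 (0.99), Dmbt1 (0.986) and Ido1 (0.986), and Fxyd2 to Qsox1 (0.988), Ido1 (0.981) and Dmbt1 (0.977). Slc5a8 was nearest to Slc5a7 (0.98), Kit and Cytip (0.975), and Slc1a1 to Kcnn4 (0.989), Slc28a3 and Cytip (0.984). For Slc12a2 the nearest were Gsr (0.99), Cd164 (0.984) and Slc35f5 (0.981), for Aqp5 Sqor (0.99), Fbxo6 (0.986) and Vill (0.984), and for Atp1b1 Gdpd1 (0.988), Cgn (0.987) and Mal2 (0.986). Fxyd3 was nearest to Nqo1 (0.928), Rassf5 (0.921) and Epm2aip1 (0.919). Aqp3 had lower values, with Sphk1 (0.856), Fam89a (0.843) and Tinagl1 (0.84), and Slc34a2, not above background, is left without neighbours. The arrays share 4 mice and 4 populations, so these values describe likeness across these arrays.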

How the data were processed

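The log2 values of 16 arrays were used as the authors deposited them, 1 value a probe set and array. RMA and limma are named in the submitters' processing notes, without role or version. Background correction, batch correction and filters: not given in the sources used here. Before labelling, 15 ng of RNA was amplified, per the labels' protocols. Of 45141 probe sets, 104 were controls, 28898 had 1 gene symbol in the array's annotation, 551 several and 15588 none. One limma model (version 3.58.1, R 4.3.3, statmod 1.5.0) had a mean for each of 8 groups and the mouse as a random block (consensus correlation 0.0383). Variances were moderated with a trend on the mean level (8 residual and 3.90 prior degrees of freedom), and Benjamini-Hochberg adjustment ran over all 17097 genes. Population contrasts average both genotypes. The scripts were tested on simulated data.

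The members, the gene lists and the contrast of Sca1 positive with other populations were chosen with earlier results of these data known. The text names all 10 members, up to 4 called genes a transporter list and comparison, and the 3 genes nearest to each member (Slc34a2, at background, left out). Same-numbered mice share parents per the labels; deviations from group means correlated between them at -0.043 to 0.074. The 2 mice a genotype limit the precision, and arrays of 1 mouse are not independent. Alternatives were array weights, the mean of probe sets, no mouse block, no trend, a filter on low values and renewed quantile normalization. Others were fits within populations, leaving out each array or mouse, and the parent pair as a fixed block. The parent pair took the place of the mouse block, so arrays of 1 mouse counted as independent there.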

Additional observations from a re-analysis of the deposited data

Results flagged for a closer look

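The contrast of knockout effects between both Sca1 positive luminal populations and the other populations was called for Slc1a1, the glutamate and aspartate carrier gene, at -0.92 ± 0.24 (SE, log2, 2 mice a genotype; limma adjusted p = 0.0488). That contrast was chosen with earlier results of these data known, so the call is a description. Non-clonogenic luminal and myoepithelial cells had Slc1a1 under the lower quartile, so their effects of 0.01 and 0.28 are not readable as changes, and the measured effects were -1.24 in ductal and 0.32 in alveolar progenitors. The adjusted p ranged from 0.0164 to 0.351 over 28 alternatives, of which 6 passed. The F test over all populations did not pass (adjusted p = 0.0892).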

How the results depend on the processing

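Depth and signal limit Slc34a2 on all arrays and Slc5a8 and Slc1a1 in the populations under the lower quartile, where no change can be read. For tested differences, staying the same meant keeping their side of the threshold. For the untested differences of luminal and myoepithelial cells it meant a move within the spread between replicates. The sign changed in 84 alternative values, of uncalled differences or of luminal and myoepithelial differences within that spread. Over 100 differences of the 10 genes and 2970 alternative values, 2800 stayed the same. Of the rest, 111 lost a call, 46 gained one, and of the untested differences of luminal and myoepithelial cells 2 turned and 11 moved by more than the spread between replicates. The cause of these changes was not tested.

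The comparison of luminal with myoepithelial cells turned for Fxyd2 with 1 of its other probe sets (-0.13, against 3.55) and for Aqp3 with another (0.04, against -0.62). Knockout counts over the 10 genes include Slc5a5 and Fxyd2, chosen on these contrasts, and record the fit alone. Counts between luminal populations over the 10 genes include both as well, and also record the fit alone. In non-clonogenic luminal cells the only gene in the count was Fxyd2, chosen on this contrast, so that count is not read. Over the 8 other genes, ductal progenitor calls went from 1 to 3 with the parent pair as a fixed replicate block, where 8.89% of all genes were called. The call of Slc1a1 was lost when the arrays of that population alone were fitted, where 0.404% of all genes were called. Myoepithelial calls went from 1 to 0 with array weights, the mean of probe sets, the parent pair block, no trend, renewed quantile normalization and that population's arrays alone. The contrast of Sca1 positive with other populations went from 1 to 0 with array weights, with no mouse block, with the parent pair block and with no trend. With the parent pair block the mean knockout effect had 3 calls over the 8 other genes, against 2, where 14.3% of all genes were called.

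Leaving out 1 array or mouse also moved the share of all genes called, from 0 to 5.3% in non-clonogenic luminal cells, 0.0994 to 19.8% in ductal progenitors and 1.63 to 15.2% in the mean knockout effect. Among the 10 genes it gave 0 to 4 calls in non-clonogenic luminal cells, 0 to 6 in ductal progenitors, 0 to 2 in alveolar progenitors, 0 to 1 in myoepithelial cells and 0 to 5 in the mean knockout effect. It gave 0 to 4 for the Sca1 contrast, 0 to 3 for the F test, and 7 to 9 genes with a higher luminal than myoepithelial mean, against 9 with all arrays. Between populations it gave 2 calls each time for ductal progenitors against non-clonogenic luminal cells, where 0.246 to 1.64% of all genes were called. Against alveolar progenitors it gave 6 to 8 for ductal progenitors and 7 to 8 for non-clonogenic luminal cells. The shares of all genes called there were 10.2 to 24.9% and 15.3 to 31.9%. Leaving out a mouse leaves 1 mouse of its genotype, so the knockout ranges given here record the fit alone.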
